A study of Drosophila melanogaster with 6 samples.

Results

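Netrins are secreted, laminin-related proteins that steer growing axons. In Drosophila they act through Frazzled, the relative of vertebrate DCC that mediates attraction, and through Unc-5, which mediates repulsion. Ephrin is a membrane-bound ligand and Eph its receptor tyrosine kinase, a contact-dependent system that in the fly has been tied to the wiring of the mushroom body and the optic lobe. The genes described here are the 2 netrins NetA and NetB, the receptor genes fra and unc-5, and Ephrin and Eph. They were selected by name, and all 6 were found among the 17807 genes of the count table and passed the filter on low counts that left 11198 genes for testing.

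Their RNA was measured in brains of Drosophila melanogaster pupae at 24 h after puparium formation, a stage at which axons of the central brain and optic lobe are being rewired. The WT group and the TetAXXC group held 3 libraries each, described in the labels as independent biological replicates, with 30 brains collected per genotype. TetAXXC flies carry a mutated CXXC zinc finger, through which the Tet protein binds DNA, introduced by Cas9 cutting and repair from a template in a nos-Cas9 stock, after which the DsRed marker was excised. Both groups were raised at 25 °C on the same food. The labels give neither the stock used as WT nor the sex of the pupae, and do not say how many edited lines entered the libraries. The study asked how Tet affects axon guidance in the early brain.

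Library totals ranged from 17861742 to 19521285 counts. Tet itself, whose gene-level counts do not resolve the edited domain, had mean CPM (library-size scaled counts, TMM method) of 790 ± 95.7 across WT and 865 ± 72.1 across TetAXXC libraries (SD, n = 3 each). Neuronal markers were abundant, with a sum over 7 genes of 5020 to 6370 CPM in WT and 5400 to 6390 CPM in TetAXXC, and none was called. Of 7 retina markers the photoreceptor genes ninaE, Rh3, Rh4 and trp were each under 1 CPM, whereas norpA, chp and gl were at 119 to 487 CPM, and the list summed to 764 to 857 CPM in WT and 723 to 729 CPM in TetAXXC, with chp called lower. Of 6 glial markers alrm, moody and wrapper were called lower in TetAXXC, with log2 differences (TetAXXC minus WT) of -1.1, -0.236 and -0.198. The other 3, repo, nrv2 and Eaat1, were not called, at -0.0014, 0.063 and 0.077. The summed list stood at 934 to 953 CPM in WT and 864 to 909 CPM in TetAXXC. Over all tested genes, 3.17% were called lower and 12.1% higher in TetAXXC. The 4 mushroom body markers summed to 1110 to 1170 CPM in WT and 1030 to 1060 CPM in TetAXXC. Of these sNPF was called lower, with mean CPM of 228 in WT and 168 in TetAXXC. The markers ey, Fas2 and dac were not called, and dac had a positive log2 difference, 0.026. The 5 neuroblast markers summed to 19.0 to 25.3 CPM in WT and 27.4 to 34.6 CPM in TetAXXC. Only wor, with mean CPM of 0.709 in WT and 2.42 in TetAXXC, was called, as higher. Of 3 tested fat body markers 2 were called lower, in sums that overlapped, and no muscle, hemocyte or tracheal marker was called. Of 15 tested testis markers 11 were called higher in TetAXXC. Their list of 17, none of which was at 0 in every library, summed to 55.9 to 104 CPM in WT and 209 to 588 CPM in TetAXXC, highest in replicate 1 of each group. The part of these other transcripts in the values below was not tested. In whole brains, fewer cells of a type and less RNA per cell cannot be told apart.

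No netrin, netrin receptor or ephrin gene was called different between the genotypes. With edgeR's quasi-likelihood test and an adjusted p under 0.05 over all genes, 0 of the 6 were called, where 15.2% of all tested genes and 7.61% of the 6320 abundant ones (averaging 4 log2 CPM or more) were. At an unadjusted p under 0.05 there was 1, Ephrin, against 26.4% of all genes. DESeq2 (21.5% of all genes called), limma-voom (1.16%) and a model with the replicate number as a block (21.1%) also called 0 of the 6. The estimated log2 fold changes (TetAXXC minus WT) ran from -0.064 for NetB to 0.11 for Ephrin, 3 negative and 3 positive, with a median of 0.019, where the median over all tested genes was 0.0041. The differences of NetA, fra and Eph were smaller than their standard errors, those of NetB, unc-5 and Ephrin larger. No 95% interval reached beyond a change of -14.5% or 23.4% in TetAXXC.

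**Figure D1:**
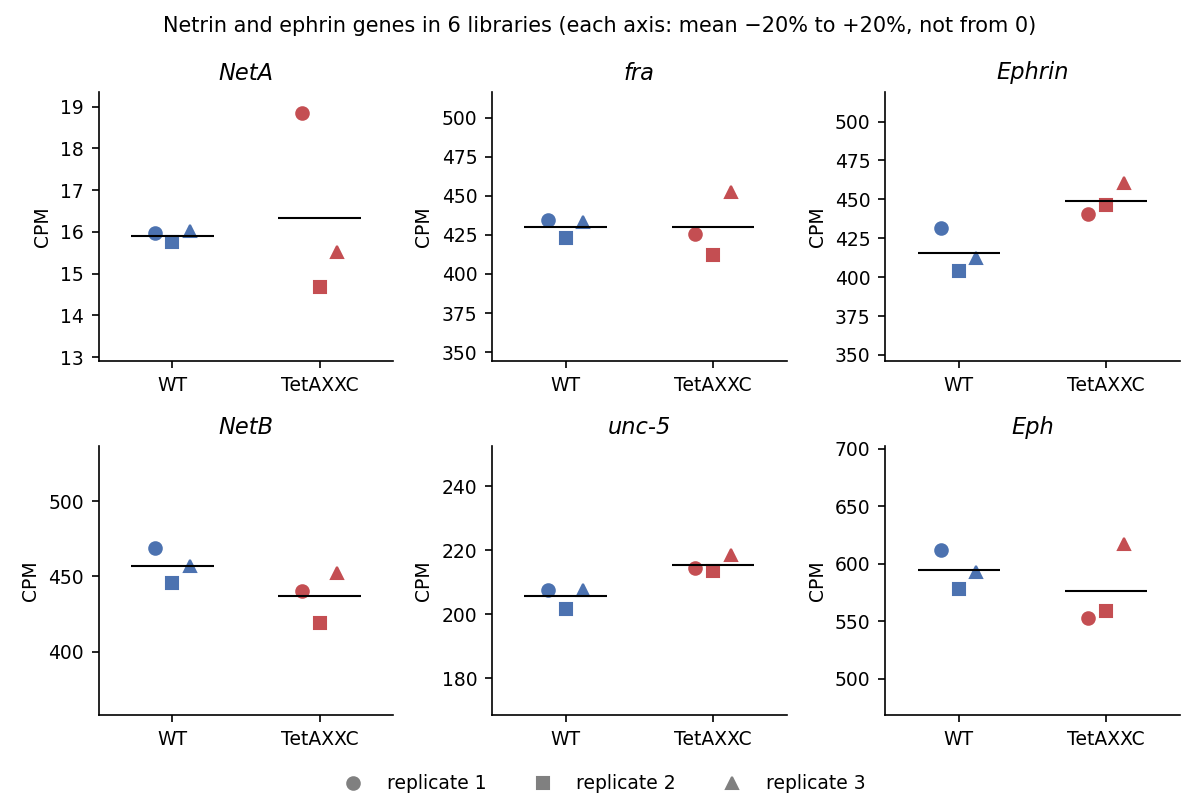
CPM of each gene in the 3 WT (blue) and 3 TetAXXC (red) libraries, with symbols for the replicate number and lines for the group means; each axis covers 20% either side of the gene's mean and does not start at 0. The groups are apart in Ephrin and unc-5 and overlap in the other 4 genes, and NetA in TetAXXC replicate 1 stands at 18.8 CPM above its other 5 libraries.

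The ligands were described first. NetA (FBgn0015773) was read at 16.0, 15.8 and 16.0 CPM in WT replicates 1 to 3 and at 18.8, 14.7 and 15.5 CPM in TetAXXC replicates 1 to 3. The TetAXXC libraries fell both above and below the WT libraries, and the coefficient of variation was 0.887% in WT and 13.5% in TetAXXC. The WT value is below what sampling of 282 to 302 counts would give on average. Medians over the abundant genes were 4.5% in WT and 5.04% in TetAXXC. The difference in spread between the groups was not tested. On the log2 scale TetAXXC exceeded WT by 0.038, with a standard error of 0.11 (edgeR adjusted p 0.894). Its sign rested on TetAXXC replicate 1, the library with the highest summed testis markers, and was -0.077 without it. At 282 to 360 counts per library NetA was the least deeply counted gene of the 6, and its 95% interval was the widest, from -14.5% to 23.4%.

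NetB (FBgn0015774), the second netrin, was read at 469, 446 and 457 CPM in WT and at 440, 419 and 453 CPM in TetAXXC. Within each replicate number the TetAXXC library was the lower, but the groups overlapped. The log2 difference was -0.064 (standard error 0.044; edgeR adjusted p 0.436), and the interval ran from -10.9% to 2.75%.

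Of the receptor genes, fra (FBgn0011592), which encodes Frazzled, was read at 435, 423 and 433 CPM in WT and at 426, 412 and 453 CPM in TetAXXC. The TetAXXC values spanned the WT values on both sides. Group means were 430.4 ± 6.24 and 430.2 ± 20.5 CPM (SD, n = 3 each), and the log2 difference of -0.00057 (standard error 0.045) left an interval from -7.13% to 7.59% (edgeR adjusted p 0.996). Among the 6320 abundant genes, 0.585% had a smaller absolute change.

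The gene unc-5 (FBgn0034013) was read at 207.5, 201.7 and 207.6 CPM in WT and at 214.3, 213.4 and 218.5 CPM in TetAXXC. Every TetAXXC library stood above every WT library, and both groups were tight, with coefficients of variation of 1.66% and 1.27%. The difference was 0.067 (standard error 0.032), or 4.75% with an interval from -0.592% to 10.4%, and the edgeR adjusted p was 0.248. A 227 bp stretch of its exons, 4.34% of their length, lies opposite exons of the mismatch repair gene Pms2, so that part of its count depends on how strand was used in counting.

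Ephrin (FBgn0040324), the ligand gene of the second system, was read at 431.5, 403.9 and 412.1 CPM in WT and at 440.7, 446.6 and 460.2 CPM in TetAXXC. Here too the groups did not overlap, although WT replicate 1 and TetAXXC replicate 1 were close. The mean CPM was 416 ± 14.1 across WT and 449 ± 10.03 across TetAXXC libraries (SD, n = 3 each). The log2 difference of 0.11 (standard error 0.041), or 8.01% with an interval from 0.97% to 15.5%, had an unadjusted p of 0.0305 and an edgeR adjusted p of 0.134. The adjusted p lay between 0.0918, with the replicate block, and 0.427, without WT replicate 3, and the estimate between 0.074 and 0.15 over 14 alternatives. The unadjusted p of Ephrin was not under 0.05 with RLE in place of TMM factors, or without WT replicate 2 or 3. Nor was it under 0.05 without any single TetAXXC library, or without the libraries numbered 1 of both groups. Under each of the other alternatives, at least 1 of the genes described here was under 0.05. The absolute change of Ephrin was larger than in 69% of the abundant genes.

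Eph (FBgn0025936), its receptor gene, was read at 612, 578 and 593 CPM in WT and at 553, 559 and 617 CPM in TetAXXC. TetAXXC replicates 1 and 2 were the lowest of the 6 libraries and TetAXXC replicate 3 the highest. The log2 difference was -0.045 (standard error 0.054; edgeR adjusted p 0.693), with an interval from -11.2% to 5.89%. Without the libraries numbered 1 of both groups it was 0.0056.

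The groups thus did not overlap in 2 of the 6 genes, unc-5 and Ephrin, both higher in TetAXXC, where the groups did not overlap in 32.7% of all tested genes (20.4% higher in TetAXXC) and in 25.9% of the abundant ones. The labels do not state a pairing. Libraries were paired by replicate number because deviations from group means correlated best between same-numbered libraries. The log2 difference was also taken within each pair. For Ephrin it was 0.031, 0.145 and 0.159 in pairs 1, 2 and 3, and for unc-5 it was 0.046, 0.081 and 0.074. For NetB it was -0.090, -0.089 and -0.014. All 3 pairs thus had the same sign in these 3 genes, while in NetA, fra and Eph the pairs differed in sign. For unc-5 and Ephrin any pairing would give like signs, because their groups did not overlap. It adds nothing to that result, and the pairing itself was taken from these data. The agreement in sign was not tested.

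**Figure D2:**
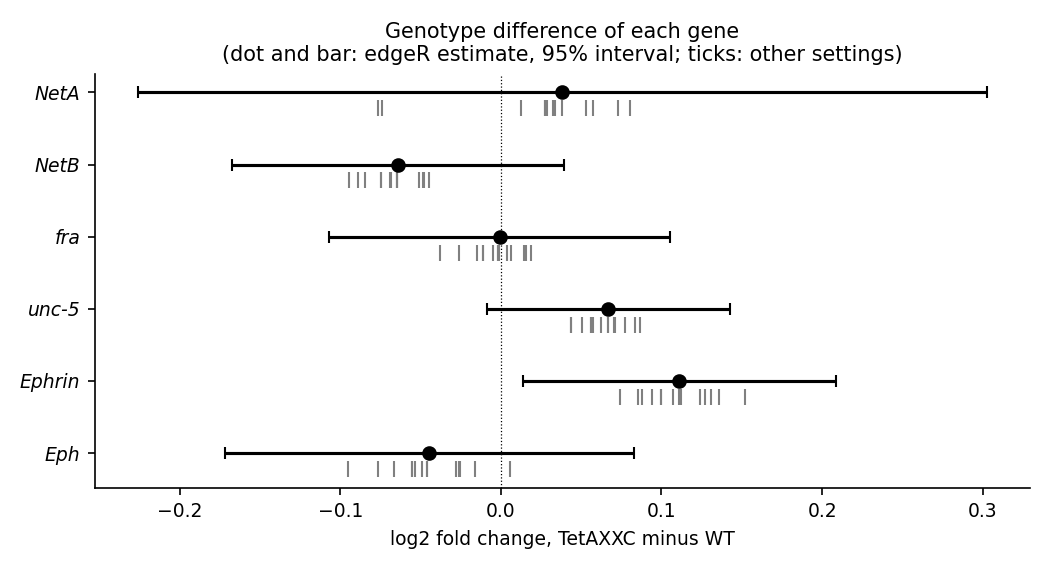
Log2 fold change of each gene, TetAXXC minus WT, as the edgeR estimate (dot) with its 95% interval (bar), and its value under 14 other settings (grey ticks). In the fit with TMM factors and all libraries, the interval of Ephrin, from 0.014 to 0.21, lies above 0 before adjustment over all genes. Those of the other 5 genes include 0.

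Levels were then compared between the genes per length, as CPM per kb of merged exon. The order from high to low was Eph, Ephrin, fra, NetB, unc-5 and NetA, with means over the 6 libraries of 101.7, 81.4, 68.1, 54.7, 40.2 and 4.82 CPM per kb. The ranges over the libraries of neighbours in this order did not overlap. Eph ran from 96.1 to 107 CPM per kb, Ephrin from 76.0 to 86.6, and fra from 65.2 to 71.6. NetB ran from 51.3 to 57.4 CPM per kb, unc-5 from 38.5 to 41.7, and NetA from 4.39 to 5.64. Part of the order depended on the length used. With the length of the median annotated transcript, NetB stood at 69.7 and fra at 68.4 CPM per kb, the reverse of the order above, and Ephrin and Eph came close, at 138 and 143 CPM per kb. NetA remained the lowest and unc-5 the second lowest by every length tried.

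RNA of both ligand-receptor systems was read in every library of either genotype, and NetB was the more abundant netrin. By CPM per kb, Eph stood at the 94.7th percentile of all tested genes, Ephrin at the 92.9th, fra at the 90.9th, NetB at the 87.8th, unc-5 at the 82.1st and NetA at the 32.6th. For comparison, the median over 6 genes of the Slit and Robo system was 49.9 CPM per kb (18.9 to 161) and that over 7 semaphorins and plexins was 59.3 (28.4 to 94.0), beside 61.4 for the netrin and ephrin genes and 11.7 for all tested genes. The midline repellent sli stood at 98.9 CPM per kb, the syndecan gene Sdc at 161, and the secreted semaphorins Sema2a and Sema2b at 94.0 and 71.6. NetA was below every gene of both of these lists.

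**Figure D3:**
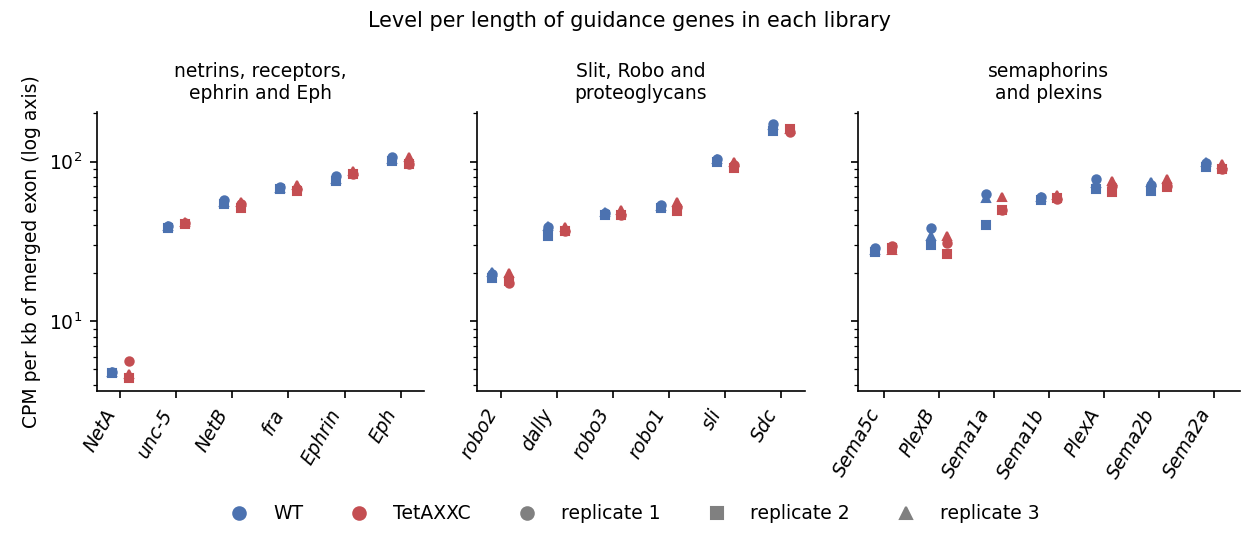
CPM per kb of merged exon on a log axis for the netrin and ephrin genes, the Slit and Robo genes with their proteoglycan partners, and the semaphorins and plexins, 1 symbol per library (WT blue, TetAXXC red). NetA, at 4.39 to 5.64 CPM per kb, lies below all other genes shown, and the other 5 netrin and ephrin genes lie between 38.5 and 107.

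Ratios between genes of the same library do not depend on how libraries were scaled, and 4 were examined. The counts per kb of NetB exceeded those of NetA by 12.01, 11.58 and 11.68 times in WT replicates 1 to 3 and by 9.57, 11.69 and 11.93 times in TetAXXC. TetAXXC replicate 1, in which NetA was high, was the only library below 11. The exact two-sided permutation p of the log2 ratio was 0.7.

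The ratio of Ephrin to Eph was 0.764, 0.757 and 0.753 in WT and 0.863, 0.865 and 0.808 in TetAXXC. All TetAXXC libraries were above all WT libraries, by 11.5% on average. The SD was 0.0057 in WT and 0.0325 in TetAXXC. The WT value is below what sampling of these counts would give on average, and the difference in spread was not tested. The ratio of fra to unc-5 was 1.74, 1.74 and 1.73 in WT and 1.65, 1.60 and 1.72 in TetAXXC, a change of -4.64% on average. Again there was no overlap, but the groups came close, at 1.728 in WT replicate 3 and 1.716 in TetAXXC replicate 3. The SD was 0.0053 in WT and 0.058 in TetAXXC, and this WT value too is below what sampling would give on average. The summed netrins over the summed netrin receptors stood at 0.573, 0.562 and 0.561 in WT and at 0.550, 0.525 and 0.530 in TetAXXC, a change of -5.42%. Each of these 3 ratios had an exact two-sided permutation p of 0.1, the smallest that 3 against 3 libraries allow, and 0.133 after Benjamini-Hochberg adjustment over the 4 ratios. With 3 against 3 libraries this permutation test cannot reach 0.05, and with signs flipped within the pairs of the same number, a test added after seeing the data, each had p = 0.25, the smallest that 3 pairs allow. Over every pair of abundant genes, the groups did not overlap in 27.3%, and the ratios share genes with each other.

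**Figure D4:**
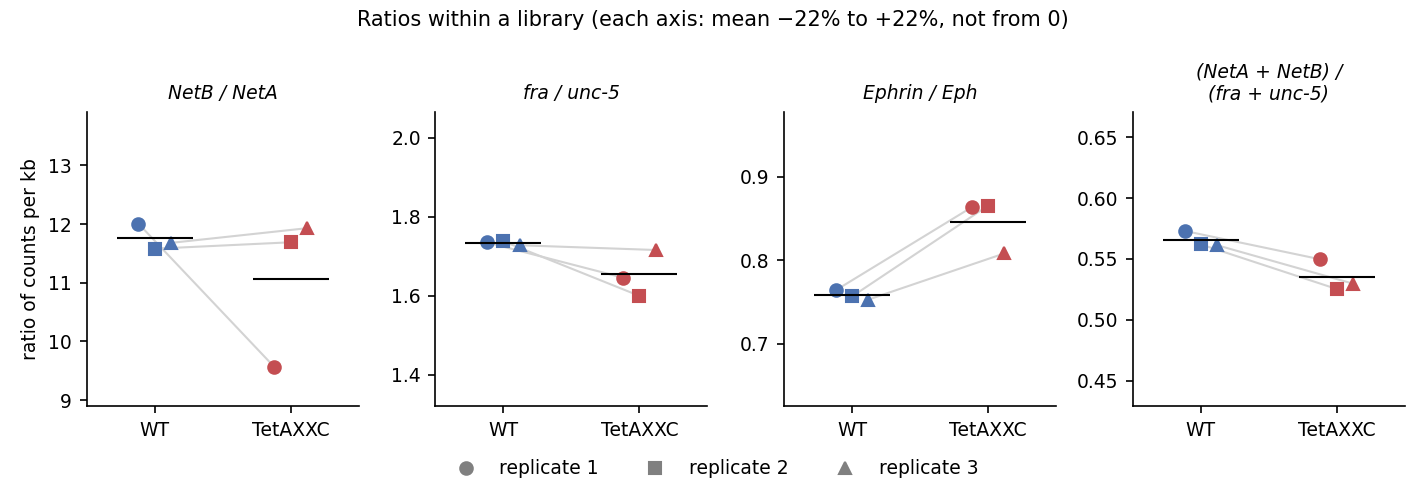
Ratios of counts per kb within each library, with grey lines joining the libraries of the same replicate number and black lines for the group means; axes cover 22% either side of the mean and do not start at 0. Ephrin over Eph lies at 0.753 to 0.764 in WT and 0.808 to 0.865 in TetAXXC, while NetB over NetA differs from WT mainly in TetAXXC replicate 1, at 9.57.

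The genes fall into neighbouring pairs on the genome (dm6 coordinates, as in the count table). NetA (chromosome X, 14604012 to 14653928, minus strand) and NetB (chromosome X, 14686038 to 14749376, minus strand) are separated by 32109 bp that hold 1 listed gene, CG5321. Ephrin (chromosome 4, 571755 to 580122, plus strand) and Eph (chromosome 4, 610684 to 622470, plus strand) are separated by 30561 bp with 3 listed genes, of which CG1909 and the transcription factor gene onecut were tested. The receptor genes fra (chromosome 2R, 12529053 to 12564184, plus strand) and unc-5 (chromosome 2R, 15340472 to 15368300, plus strand) lie far apart. The netrin genes are long and mostly intronic, with merged exons covering 6.7% of the span of NetA and 12.9% of that of NetB, whereas those of Ephrin cover 63.5% and those of Eph 48.8%.

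No tested gene beside or between them was called. CG5321, between the netrin genes, had mean CPM of 6.05 in WT and 3.8 in TetAXXC, and its log2 difference of -0.67 had an edgeR adjusted p of 0.0562. On the other sides of the netrin genes, sbm was at 75.5 and 75.8 CPM and CG15890 at 3.14 and 4.66 CPM, with adjusted p of 0.974 and 0.23. Around the ephrin genes, the log2 differences were -0.11 for ND-49, a subunit gene of respiratory complex I, 0.10 for CG1909, -0.037 for onecut and -0.099 for mav, a TGF-beta family ligand gene, with adjusted p from 0.161 to 0.778. Beside the receptor genes, Hr51, CG33632 and lncRNA:CR44458 had adjusted p from 0.163 to 0.948, and CG33775 did not pass the filter. Within the spans of NetB and fra lie further genes that share no exon with them. Of these only CG30056, within fra, was tested, at 2.17 and 3.97 CPM with an adjusted p of 0.151.

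Ephrin and Eph lie on chromosome 4, a small chromosome with few genes and a large share of heterochromatin. The 75 abundant genes there had a median log2 difference of -0.059, where the medians of the other chromosome arms lay between -0.025 and -0.013. Of these 75 genes, 5 were called (6.67%). Eph, at -0.045, was near the middle of its chromosome, with 43 of the 75 genes below it, whereas Ephrin, at 0.11, was exceeded by 6. This is a description of where the pair stood and was not tested.

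Of 20 genes that act with the netrin receptors or on them, 1 was called, in the lower direction. The list held the netrin receptor Dscam1, kinases, adaptors, small GTPases, the WAVE actin complex, the proteases kuz and Psn, and comm, whose transcription is activated by the cleaved Frazzled tail. Of the 20, 18 had a negative log2 difference and 2 a positive one, where 58.1% of abundant genes were negative. The median of the 20 was -0.063, beside -0.019 for all abundant genes. The 20 genes were read in the same 6 libraries, and this lean was not tested. In the lower direction 1 was called (3.17% of all genes and 4.59% of abundant ones), and in the higher direction 0 (12.1% and 3.02%). The edgeR test gave 3 of the 20 at an unadjusted p under 0.05, beside 26.4% of all genes and 19.5% of abundant ones.

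The called gene was ena, which encodes an actin filament elongation factor that works downstream of guidance receptors. It was read at 499, 476 and 499 CPM in WT and at 414, 448 and 422 CPM in TetAXXC. All TetAXXC libraries were lower, with a log2 difference of -0.20 (standard error 0.045; edgeR adjusted p 0.0296). Of the 6 fits that each dropped 1 library, the call stood in the fit without TetAXXC replicate 2 and was lost in the other 5, with adjusted p up to 0.111, and it was also lost under limma-voom, with 0.0904. With the replicate block 2 genes were called lower, ena with an adjusted p of 0.0131 and Sra-1, a subunit of the WAVE complex, with 0.0384.

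Sra-1 was read at 417, 430 and 416 CPM in WT and at 383, 380 and 391 CPM in TetAXXC, without overlap. Its log2 difference of -0.13 had an edgeR adjusted p of 0.052 without the block. The most abundant genes of the list per length were the small GTPases Cdc42 and Rac1, at 206 and 159 CPM per kb, with log2 differences of -0.068 and 0.094 and adjusted p of 0.39 and 0.178. Dscam1 differed by -0.000195 and comm by -0.072, with adjusted p of 0.999 and 0.452. Dscam1, comm and Sra-1 were chosen after their values were seen.

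Of 10 genes that act with Eph receptors, 0 were called by edgeR (15.2% of all genes and 7.61% of abundant ones), and 0 had an unadjusted p under 0.05 (26.4% and 19.5%). DESeq2, which called 21.5% of all genes, called 1, the adaptor gene dock, at -0.096 with an adjusted p of 0.0395. The list holds Exn, an ephexin exchange factor, and Vap33, whose MSP domain is an Eph ligand. The log2 differences ran from -0.085 to 0.047 with a median of -0.050, 8 negative and 2 positive. Src42A, Src64B, dock, Pak and Cdc42 are on the netrin list too, so these lists are not separate observations. The GTPase gene Rho1, the most abundant of the list, had mean CPM of 674 ± 13.7 across WT and 677 ± 20.2 across TetAXXC libraries (SD, n = 3 each). Among the Slit and Robo genes and the semaphorins and plexins, edgeR called 0 of 6 and 0 of 7, with 0 of each at an unadjusted p under 0.05, beside the same shares of all and abundant genes, and DESeq2 and limma-voom also called 0. Their median log2 differences were -0.039 and -0.021, with 6 of 6 and 4 of 7 genes negative, where 58.1% of abundant genes were. The difference between these lists and the netrin and ephrin genes was not tested.

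**Figure D5:**
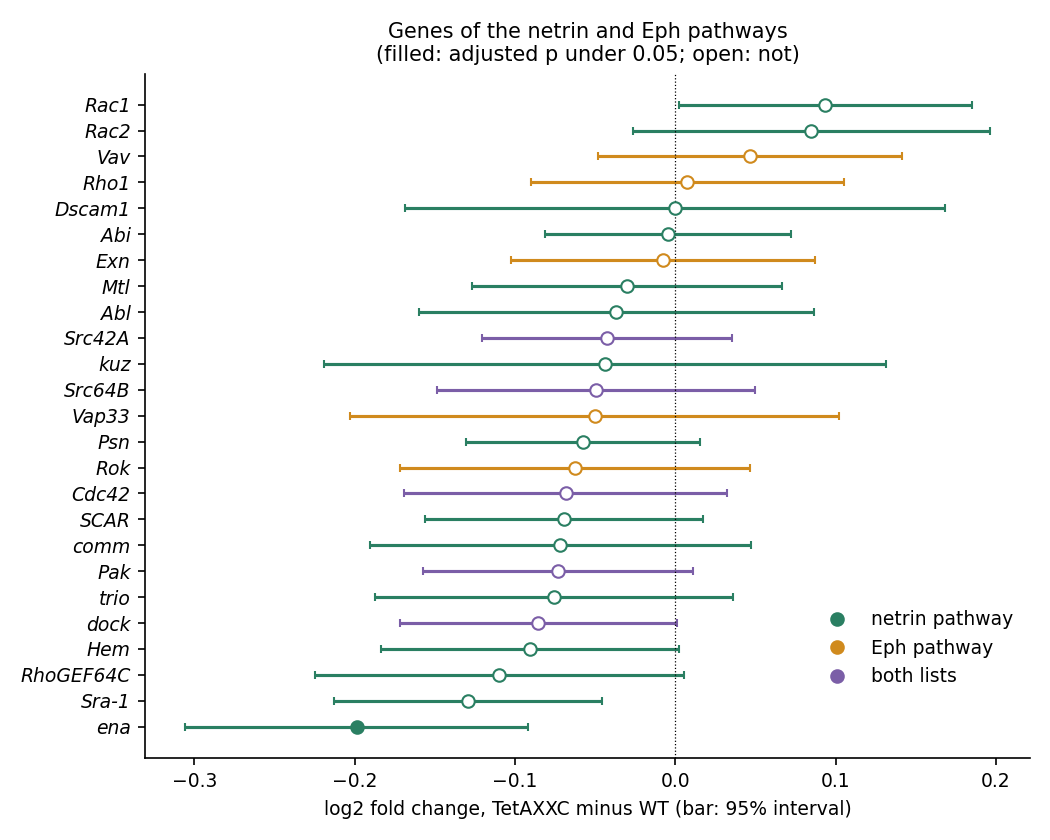
Log2 fold change, TetAXXC minus WT, with 95% intervals for the genes of the netrin pathway (green), the Eph pathway (orange) or both (purple); filled symbols mark an adjusted p under 0.05. The filled symbol is ena at -0.20, and most of the other estimates lie between -0.13 and 0.

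The genes most like each member over the 6 libraries were found by the root-mean-square difference of mean-centred log2 CPM among the abundant genes. Nearest to Ephrin were cue and PIG-G, at 0.0139 and 0.0151, and 3.42% of the 6319 candidates lay within 0.05 of it. Nearest to unc-5 were Pcyt1 and CG1316, at 0.0042 and 0.0135. NetB was nearest to CG42748 and Dap160, at 0.0092 and 0.0106, fra to CG6791 and Map205, at 0.0098 and 0.0124, and Eph to Nlg3 and Atf6, at 0.0116 and 0.0161. For these 4 genes between 7.12% and 12.7% of the candidates lay within 0.05. NetA, with its high value in TetAXXC replicate 1, had fewer close matches, 0.301% within 0.05, with Ack and Sec71 nearest at 0.0289 and 0.0305.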

How the data were processed

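Poly(A) RNA was sequenced from strand-specific libraries, per the labels' protocols. The authors deposited raw counts, 1 whole number per gene and library, with merged exon lengths, in the layout of featureCounts, per the file headers. The submitters' processing notes name Trimmomatic 0.39, HISAT2, SAMtools, featureCounts and DESeq2, and the builds BDGP6 and dm6. The strand setting is not given in the sources used here. Of 17807 gene IDs, 17710 were in the Release 6 annotation and 17636 had the same coordinates, the 6 members among them.

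Counts were tested with edgeR 4.0.16 in R 4.3.3: filterByExpr (minimum count 10, minimum total 15), TMM, glmQLFit and glmQLFTest on genotype, with Benjamini-Hochberg adjustment over 11198 genes and a threshold of 0.05. Standard errors and 95% intervals came from the coefficient and its F statistic. DESeq2 1.42.0 and limma-voom 3.58.1 were alternatives. CPM was scaled by TMM. Intervals and p-values cover the spread between these libraries, which the labels call independent replicates without saying how the brains were pooled.

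Replicate numbers 1 to 3 occur in both groups. Deviations from group means correlated across genes at 0.652, 0.419 and 0.343 between libraries numbered 1, 2 and 3. Between libraries of different numbers the correlations ran from -0.51 to 0.23, the latter for WT replicate 3 and TetAXXC replicate 2. The numbers were therefore taken to pair the libraries. The pairing comes from these values, not the labels, and was not tested. Replicates of a group differed beyond sampling noise (chi-square per degree of freedom 6.94 to 17.8).

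The 6 genes and all lists were chosen with earlier results of these data known. Genes were named by rule: the 6 members, Tet, list genes with an adjusted p under 0.05 and the 2 most abundant per length of each list, 2 most alike genes per member, and overlapping or adjacent genes. Alternatives were normalisation, low-count filters, the test, the replicate block and each library left out. Leaving out the pair numbered 1, and the transcript lengths, were chosen after seeing the data.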

Additional observations from a re-analysis of the deposited data

How the results depend on the processing

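Of 84 values of the 6 genes under 14 alternatives each, 76 kept their direction and 8 reversed, and none passed the threshold, with edgeR, DESeq2 or limma-voom. The reversals were in NetA, fra and Eph, whose differences in the main fit were smaller than their standard errors. For NetA the log2 difference was -0.074 without the pair numbered 1 and from -0.077 to 0.080 with 1 library left out. For fra it was 0.016 with upper-quartile factors, 0.019 among the abundant genes refitted alone, 0.014 without the pair numbered 1 and from -0.038 to 0.0065 with 1 library left out. For Eph it was 0.0056 without the pair numbered 1. The ratio of NetB to NetA differed by 0.0071 without TetAXXC replicate 1, in a range from there down to -0.152 without TetAXXC replicate 3. Rho1 was at -0.0030 with RLE factors and -0.0029 with DESeq2, and from -0.040 to 0.031 with 1 library left out, and Sema2b from -0.014 to 0.059.

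The count of called genes over the whole table, 1707, was 268 among the abundant genes refitted alone and 130 with limma-voom. With 1 library left out it ran from 54 to 2095, namely 54 without WT replicate 2 and 104 without WT replicate 3, then 905 when TetAXXC replicate 3 was dropped, 1089 when TetAXXC replicate 1 was dropped and 2095 when TetAXXC replicate 2 was dropped. The netrin pathway list had 2 calls with RLE factors, 2 with the replicate block, 3 with DESeq2, 0 with limma-voom, 0 among the abundant genes refitted alone, 0 without the pair numbered 1, and 0 to 1 with 1 library left out. The Eph pathway list had 1 with DESeq2. The cause was not tested. The replicate block changed no call of the 6 genes. At 282 to 360 counts per library, NetA has the widest interval.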
